A study of Mus musculus with 4 samples.

Results

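Somatostatin (SST) interneurons sorted as tdTomato+ from mouse somatosensory cortex at postnatal day 97 (P97) were compared with the same sort at P45. After the filters below, 1865 SST cells of 2379 tdTomato+ barcodes remained, out of 2611 barcodes in the whole series: 553 cells in the single P97 library, 667 in P45 replicate 1 and 645 in P45 replicate 2. A cell was kept with 2000 or more unique molecular identifiers (UMIs, 1 for each captured transcript), under 25% of them from genes starting mt- (the mitochondrial genome), and 3 or more from Sst. Few barcodes lay near the last limit, 16, 14 and 9 with exactly 3 Sst UMIs and 12, 22 and 14 with 2 (P97, then P45 replicates 1 and 2). Raw UMIs were then summed per library over all of these cells, and again over those with 1 or more Hpse UMIs, 2 or more Calb2, 3 or more Pvalb or 1 or more Crh, so that each difference between ages could be looked for in 4 marker groups. The mice carried SST-Cre, a Cre-dependent tdTomato reporter and the X94 GFP transgene on a Crl:CD1(ICR) background in both age groups. Thus tdTomato marks every cell in which the Sst-driven Cre has acted, at any time in its history. The P97 cells were pooled from 6 mice, and the P45 libraries came from separate batches of animals of unstated number. A GFP+/tdTomato+ library from the same P97 dissociation (186 cells that passed the same filters) is given beside the results as another sort of the same mice, not as a replicate of age.

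SST interneurons are GABAergic cells that inhibit the dendrites of nearby neurons, and in the cortex they comprise several types that differ in axonal projection. Hpse encodes heparanase, Calb2 and Pvalb encode the calcium-binding proteins calretinin and parvalbumin, and Crh encodes corticotropin-releasing hormone. Cortical interneurons go on maturing after the juvenile period: synaptic and ion channel genes are adjusted while growth-associated genes decline.

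Several properties of the libraries stood apart and bear on every difference between ages. Each age also had its own batches of mice, so age and batch cannot be told apart, and the P97 tdTomato+ cells made up 1 library. Library totals were 4801367 to 5693022 UMIs, with median depths of 7701 UMIs per SST cell at P97 against 5162 and 6163 at P45. Pvalb-positive cells held 1581093 of the 4866165 UMIs summed at P97, against 517706 of 3983479 and 601642 of 4314325 at P45. Calb2-positive cells held 311077 at P97 against 582673 and 492634. Sums over all SST cells thus weighted the marker groups unlike between ages. The P97 library lost 80 barcodes to the mt- limit and the P45 libraries 1 and 4, whereas the median mt- share of the cells kept was 4.33% to 4.68% in all 3. P45 replicate 1 held Xist without Y-linked UMIs in 665 of 667 cells, and the other libraries were mixed (236 of 553 cells at P97 and 218 of 645 in P45 replicate 2). SST cells held the defining genes of their class in every library: Sst itself, which chose the cells, at 4761 CPM at P97 (CPM being UMIs scaled to a common library total) against 8562 and 5387, and Gad1, Gad2, Slc32a1 and Lhx6 at 137 CPM or more in each. The 12 excitatory neuron markers summed to 686 CPM at P97 and 682 and 638 at P45, and the 12 oligodendrocyte lineage markers to 1282 against 1202 and 1273, with Fezf2 at 0 in P45 replicate 2 and Pdgfra and Cspg4 at 0 in both P45 libraries. The 10 astrocyte markers summed to 192 CPM at P97 and 172 and 104 at P45, and their defining members Gfap, Aqp4, Gja1, Slc1a3 and Aldh1l1 had 0 or 1 UMI in each. Of the astrocyte markers 5 could be tested and none was called, with 3 above both P45 libraries, none below and a median log2 fold change of 0.40. In the marker groups, where 2 could be tested, the median was 0.43 to 0.92, and the part of astrocyte RNA in the differences was not tested. Of 10 microglia markers 6 had no UMI in any of the 3. Libraries shared at most 2 barcodes.

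Across all SST cells, 207 of 12104 genes tested (1.71%) differed between ages, 163 higher at P97 (1.35% of those tested) and 44 lower (0.364%). The test was edgeR's quasi-likelihood F test on the 3 library sums with Benjamini-Hochberg adjustment at 0.05, which leaves 1 residual degree of freedom among libraries. DESeq2 called 86. At an unadjusted p under 0.05 edgeR passed 1657 genes. The libraries were scaled by TMM, which centres the bulk of the genes, and the median log2 fold change over all genes was -0.002. Differences of this size were rarer between the P45 batches: among 7765 genes at 20 CPM or more in a library, 27 differed by 2-fold or more between the P45 libraries, 131 between P97 and replicate 1, 94 between P97 and replicate 2, and 69 in the same direction from both (CPM + 5). In cells with Xist and no Y-linked UMI, 206 of the 207 genes kept their direction and 194 were called again, and Mobp turned from lower to higher. The 207 genes were called on sums that include these cells, with 665 of the 667 cells of P45 replicate 1. Agreement was thus favoured in advance, and the counts are a description.

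**Figure D1:**
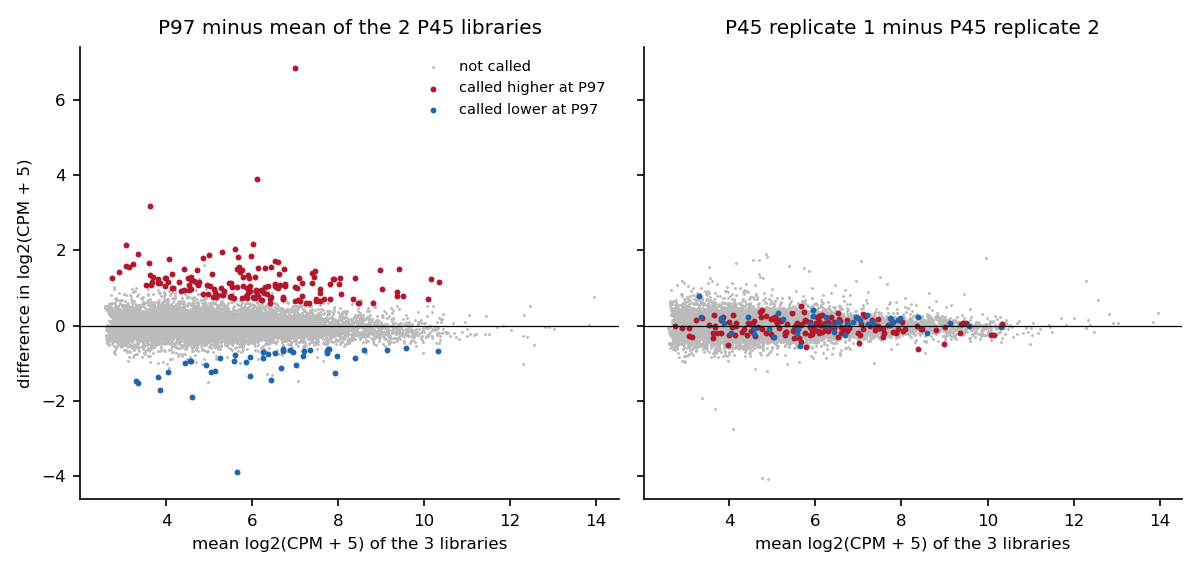
Difference in log2(CPM + 5) of summed SST cells against mean level, 1 point per gene tested, for P97 minus the P45 mean (left) and for P45 replicate 1 minus replicate 2 (right). The 163 genes called higher at P97 (red) and 44 called lower (blue) lie away from 0 on the left, and the right panel shows the same genes between the P45 batches.

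Most of what was called in the whole population recurred in each marker group. A gene was said to recur if its CPM at P97 lay outside both P45 libraries in the same direction in all 4 groups, counted over the 7626 genes with 20 or more UMIs in each group. Of these, 1074 recurred (14.1%), 539 higher (7.07%) and 535 lower (7.02%) at P97. Among the 155 called genes that could be counted, 143 recurred, 116 of 124 higher and 27 of 31 lower. They were called on sums that include the cells of these groups, against the same P45 libraries, so their recurrence was favoured in advance. At 2-fold or more in every group, 45 genes recurred higher (0.59% of 7626) and 3 lower (0.0393%), together 0.629%. The marker groups of a library share mice, channel and some cells, and this overlap differed between libraries. Of the Hpse-positive cells, 27 of 79 at P97 were also Pvalb-positive, against 14 of 64 and 7 of 74 at P45. Recurrence thus shows that a difference did not come from 1 marker group, and the groups are not replicates of age.

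Tested separately, the Pvalb-positive cells gave 260 calls of 8543 genes (3.04%), 170 higher (1.99%) and 90 lower (1.05%). The Hpse-positive cells gave 156 of 8418 (1.85%), 94 higher (1.12%) and 62 lower (0.737%), and the Crh-positive cells 100 of 7690 (1.3%), 76 higher (0.988%) and 24 lower (0.312%). The Calb2-positive cells gave 52 of 7967 (0.653%), 49 higher (0.615%) and 3 lower (0.0377%). These counts rested on 31 to 113 cells per group at P97 and 52 to 82 at P45, and their order changed with the cells used. In cells positive for exactly 1 marker, 94 genes were called in the Hpse, 109 in the Calb2, 29 in the Pvalb and 80 in the Crh group, and with 4000 or more UMIs per cell the Calb2-positive cells gave 108 and the Pvalb-positive cells 68. Of the 207 genes called in all cells, 36 were called in the same direction in all 4 groups and 58 in none of them. Cells with none of the 4 markers gave 130 calls of 11290 genes (1.15%), 114 higher (1.01%) and 16 lower (0.142%).

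Among genes at 50 CPM or more, the largest rise at P97 was in Vps8, a subunit of the CORVET complex that tethers endosomes. Vps8 (chromosome 16, 21423118 to 21644680, plus strand, GENCODE annotation of GRCm38) was at 3013 CPM at P97 and at 19.6 and 22.9 CPM at P45, a log2 fold change of 7.14 ± 0.15 (SE) with adjusted p = 1.2e-07. Almost every P97 cell carried it: 552 of 553 cells had a UMI, with a median of 20 per cell, against 71 of 667 and 92 of 645 cells at P45. It was at 1838 CPM in Hpse-positive, 3151 in Calb2-positive, 2891 in Pvalb-positive and 2825 in Crh-positive cells at P97, and at 15.9 to 33.6 CPM in the same groups at P45. The GFP+ library from the same P97 mice held 815 CPM, between the other P97 library and both P45 libraries. The gap was also present outside SST cells: in barcodes of the same libraries positive for Slc17a7, described below, Vps8 was at 3122 CPM at P97 against 23.4 and 21.5. Age and batch cannot be told apart for it, and it is reported as uncertain.

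Another large gap was in mt-Atp8, a mitochondrially encoded subunit of ATP synthase. Because mt- genes took part in choosing the cells, its values are a description: 414 CPM at P97 against 23.6 and 23.2, and 351 CPM or more in each marker group at P97 against 29.2 or less at P45. It too was higher in the Slc17a7-positive barcodes, at 232 CPM against 11.7 and 26.8, and is reported as uncertain. Of the 13 protein-coding mitochondrial genes, 9 lay above both P45 libraries at P97 and 1 below, with a median log2 difference of 0.30. mt-Atp6, whose transcript also carries the Atp8 reading frame, was at 14865 CPM at P97 and 15107 and 14145 at P45, without the gap of mt-Atp8. Of the genes of complex I, mt-Nd4l was at 595 CPM against 197 and 306, and mt-Nd5 at 452 against 271 and 274. Nuclear genes of the respiratory chain did not follow, as 17 of 76 lay above both P45 libraries (37.5% of all genes did) and 48 below (36.1%), and the 1 member called was Atp5k, an ATP synthase subunit, at 802 CPM against 402 and 416 (log2 fold change 0.97 ± 0.11, adjusted p = 0.0037).

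Several of the higher genes have very short transcripts. Of the 62 genes tested whose longest annotated transcript is at most 500 nucleotides, 7 were called higher (11.3%, against 1.35% of all genes) and 1 lower. These include the small nucleolar host RNA Snhg9 (183 nucleotides, 48.1 CPM at P97 against 0.254 and 1.62), mt-Atp8 (204), mt-Nd4l (297) and the noncoding Gm10076 (384), and the genes of the small ribosomal proteins Rps29 (461) and Rpl38 (457). Rps29 was at 2019 CPM at P97 against 779 and 920 (log2 fold change 1.25 ± 0.13, adjusted p = 0.0024), Rpl38 at 1509 against 841 and 999 (0.71 ± 0.13, adjusted p = 0.038). Genes of 501 to 1000 nucleotides did not share this: their median log2 fold change was -0.12, with 6 called higher and 3 lower among 523. Genes over 8000 nucleotides had a median of 0.04. The part of transcript length in the calls was not tested.

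The other genes with large folds serve diverse functions of lipids, membrane traffic and RNA. Smpd3, a neutral sphingomyelinase, was at 171 CPM at P97 against 37.8 and 31.5 (log2 fold change 2.31 ± 0.14, adjusted p = 0.00038), and St3gal5, which makes the ganglioside GM3, at 207 against 59.7 and 61.4 (1.77 ± 0.12). Cog7, a subunit of the Golgi tethering complex COG, was at 113 CPM against 28.7 and 28. All 3 genes were called in all 4 marker groups. So were Cnot3, of the deadenylase complex CCR4-NOT (101 against 31.7 and 30.6 CPM), Amd1, an enzyme of polyamine synthesis (171 against 57.4 and 53.3), Brinp3 (199 against 50.8 and 63.7) and Fam160b2 (143 against 35.3 and 36.8). Abhd2 was called in 3 of the groups (61.6 against 16 and 12.5 CPM) and the growth factor gene Vegfa in 1 (95.7 against 25.6 and 36.4), although both lay above P45 in all 4.

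**Figure D2:**
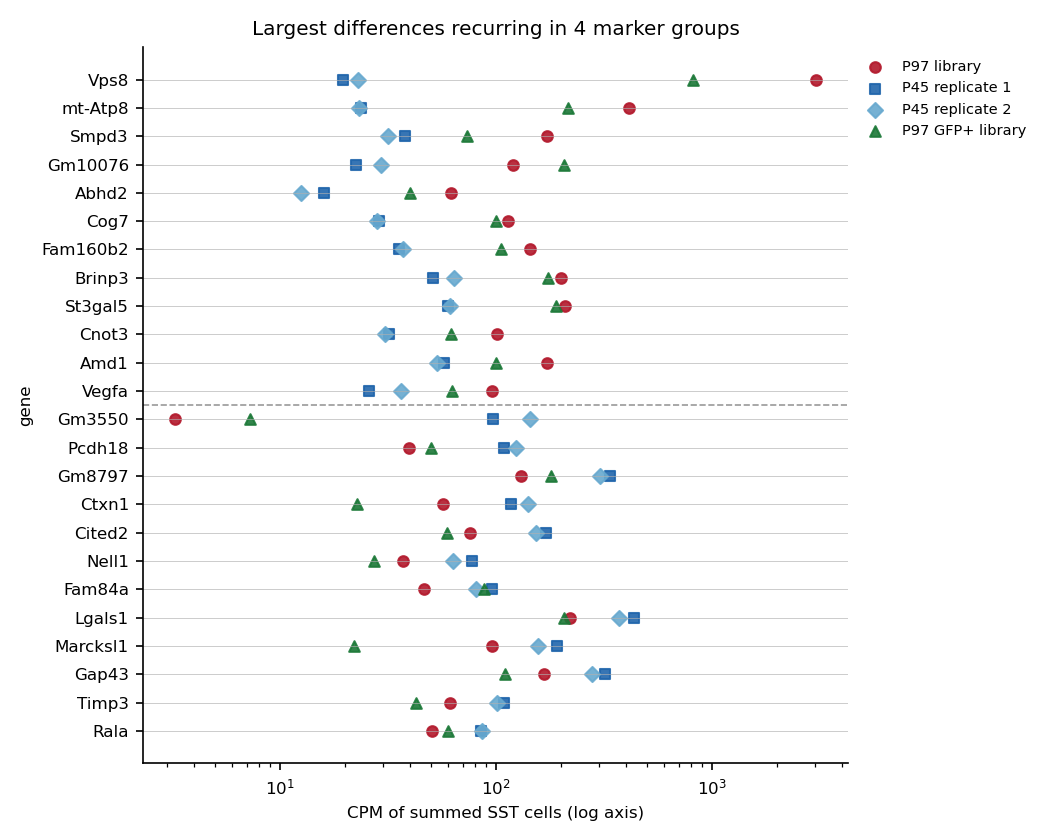
CPM of summed SST cells on a log axis for the 12 genes higher (above the dashed line) and 12 lower at P97 with the largest called differences that recurred in 4 marker groups, 1 symbol per library. The P97 tdTomato+ library lies outside both P45 libraries in every row, and the P97 GFP+ library lies on the same side as it in all rows but Fam84a, where it falls between the P45 libraries.

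Whether these differences belonged to SST cells was looked at in barcodes outside the rule. The tdTomato+ libraries also held barcodes with 2 or more UMIs of Slc17a7, the vesicular glutamate transporter of excitatory neurons, and under 3 of Sst: 16 barcodes with 198593 UMIs at P97, and 71 and 24 with 512250 and 186300 at P45. In them Vps8 was at 3122 CPM at P97 against 23.4 and 21.5, as in SST cells, and mt-Atp8 at 232 against 11.7 and 26.8. Of the 123 genes called higher in SST cells that had 20 or more UMIs here, 117 lay above both P45 libraries and 2 below (35.5% of 6782 genes were above). Of 30 genes called lower, 19 lay below both and 7 above (39.1% of all genes were below). Most genes higher at P97 were also higher outside the SST population, and the lower genes divided. These barcodes were chosen after the values were seen and are few. RNA of SST cells was scarce in them: Gad2, at 2213 CPM in SST cells at P97, was at 15.1 CPM.

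**Figure D3:**
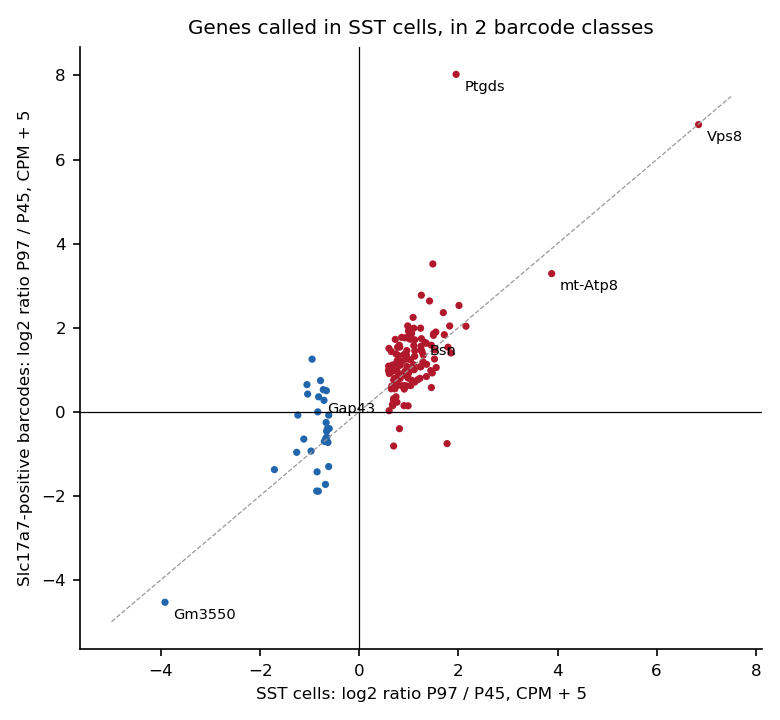
Log2 ratio of P97 to the P45 mean (CPM + 5) in SST cells (horizontal) and in Slc17a7-positive barcodes with under 3 Sst UMIs (vertical), for the 153 genes called in SST cells with 20 or more UMIs in those barcodes. Red points were called higher and blue lower at P97 in SST cells, and the dashed line marks equal ratios. Vps8 and mt-Atp8 lie near that line, while Gap43 and several other genes lower in SST cells lie at or above 0 on the vertical axis.

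Among the genes of GABA synthesis and transport, Gad2 alone was called. Gad2 encodes GAD65, the form of glutamate decarboxylase held at nerve terminals, and lies on chromosome 2 (22622205 to 22693874, plus strand). It was at 2213 CPM at P97 and at 1001 and 969 at P45 (log2 fold change 1.17 ± 0.11, adjusted p = 0.0017). The P97 GFP+ library held 2483 CPM. Gad2 was called in each marker group, at 2442 CPM against 1150 and 1128 in Hpse-positive, 3492 against 1067 and 1200 in Calb2-positive, 2084 against 863 and 924 in Pvalb-positive and 2908 against 1279 and 1146 in Crh-positive cells. The share of cells with a Gad2 UMI was 95.5% to 98.2% in the 3 libraries, whereas the median was 16 UMIs per cell at P97 and 5 in both P45 libraries, at the depths given above. Its partner Gad1, which encodes GAD67, did not pass the test, with 1033 CPM at P97 against 1222 and 1115, and neither did the vesicular GABA transporter gene Slc32a1, with 431 against 523 and 501.

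Genes of the presynaptic release machinery were called in 1 direction, 4 of 39 higher and none lower (1.35% of all genes tested were called higher), although 26 of the 39 lay below both P45 libraries against 9 above (36.1% and 37.5% of all genes) and the median log2 fold change of the list was -0.17. Bsn, the scaffold protein Bassoon of the active zone (chromosome 9, 108096022 to 108190384, minus strand), was at 467 CPM at P97 against 182 and 203 (log2 fold change 1.28 ± 0.12, adjusted p = 0.0012) and was called in all 4 marker groups. Syt2, the fast calcium sensor synaptotagmin 2, was at 71.6 CPM against 17.3 and 14.4 (2.18 ± 0.18, adjusted p = 0.00066). Among the marker groups Syt2 was highest in Pvalb-positive cells, with 159 CPM at P97 against 51.6 and 59.4. It was also higher in Hpse-positive cells, at 28.7 against 1.83 and 3.28. A larger share of the Hpse-positive cells was also Pvalb-positive at P97, and the part of these cells in that difference was not tested. Vamp1 (synaptobrevin 1) was at 141 CPM against 83 and 87.1, with a smaller log2 fold change of 0.72 ± 0.12. Madd, a Rab3 exchange factor, and Akap5, a kinase-anchoring scaffold of synapses, named after their values were seen, were at 313 against 133 and 116 CPM and at 239 against 109 and 86.9, both called in all 4 groups.

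Of 30 sodium and calcium channel genes, 3 were called higher and none lower, beside 1.35% and 0.364% of all genes. The median of the list was -0.08, with 16 members below both P45 libraries and 9 above. Cacna1b, the pore subunit of the N-type calcium channel (chromosome 2, 24603887 to 24763152, minus strand), was at 279 CPM at P97 against 126 in both P45 libraries (log2 fold change 1.15 ± 0.11, adjusted p = 0.0015), again in all 4 marker groups. The sodium channel beta subunit genes Scn2b (463 against 293 and 310 CPM) and Scn4b (15.8 against 4.82 and 4.87) had log2 fold changes of 0.62 ± 0.11 and 1.69 ± 0.31. Both folds are over all SST cells, where Pvalb-positive cells gave a larger part of the UMIs at P97, as stated above. None of 46 potassium and HCN channel genes was called by edgeR's test (9 at an unadjusted p under 0.05) or by DESeq2, and the median was -0.04. None of 16 GABA receptor genes was called by either tool (4 at an unadjusted p under 0.05 by edgeR), with a median of -0.12. Kcnc1, the Kv3.1 channel gene, was at 641 CPM at P97 against 474 and 539. The glutamate receptor list had a median of -0.20, with 17 members below both P45 libraries and 6 above (36.1% and 37.5% of all genes). Of 32 glutamate receptor genes only Grid1, the delta 1 subunit, was called, at 57.5 CPM against 28.4 and 27.3 (1.04 ± 0.16, adjusted p = 0.016).

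The stretch around the annotated start of Gad2, Bsn and Cacna1b (250 bases before it to 50 after, RefSeq, GRCm38.p6) is shown because these synaptic genes were higher at P97 in all 4 marker groups. Capitals mark each GC box (GGGCGG, either strand).
Gad2, chr2:22622077-22622376, plus strand: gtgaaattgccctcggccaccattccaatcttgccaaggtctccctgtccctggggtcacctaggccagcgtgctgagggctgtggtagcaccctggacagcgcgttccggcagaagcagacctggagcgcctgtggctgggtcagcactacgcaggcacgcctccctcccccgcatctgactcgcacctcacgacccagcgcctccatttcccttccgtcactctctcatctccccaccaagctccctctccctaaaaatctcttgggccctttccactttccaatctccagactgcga
Bsn, chr9:108190334-108190633, minus strand: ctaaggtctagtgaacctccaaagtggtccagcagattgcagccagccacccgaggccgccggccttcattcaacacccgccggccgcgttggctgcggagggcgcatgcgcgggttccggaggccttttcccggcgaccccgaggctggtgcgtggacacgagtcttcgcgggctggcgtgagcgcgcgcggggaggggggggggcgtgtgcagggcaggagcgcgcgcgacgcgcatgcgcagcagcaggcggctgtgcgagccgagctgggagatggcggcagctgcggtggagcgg
Cacna1b, chr2:24763103-24763402, minus strand: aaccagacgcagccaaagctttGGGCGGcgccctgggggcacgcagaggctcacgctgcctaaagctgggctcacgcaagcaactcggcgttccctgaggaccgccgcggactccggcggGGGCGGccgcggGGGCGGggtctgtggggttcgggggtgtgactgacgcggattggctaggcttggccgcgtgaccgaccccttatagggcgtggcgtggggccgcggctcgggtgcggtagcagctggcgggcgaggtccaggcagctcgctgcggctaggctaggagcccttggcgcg
Each is 5′ to 3′ on the gene's strand. The Cacna1b stretch held 3 GC boxes and the others none, and none of the 3 held an E-box (CACGTG), a cyclic AMP response element (TGACGTCA) or a TATA box (TATAAA), searched on both strands. A GC box was in 71.1% of the 121 promoters matched for the 163 genes called higher, in 72.4% of 29 for the 44 called lower, and in 70.4% of 9122 for all genes tested. An E-box was in 11.6%, 20.7% (6 of 29) and 12% of them. The 3 stretches had no searched motif in common.

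**Figure D4:**
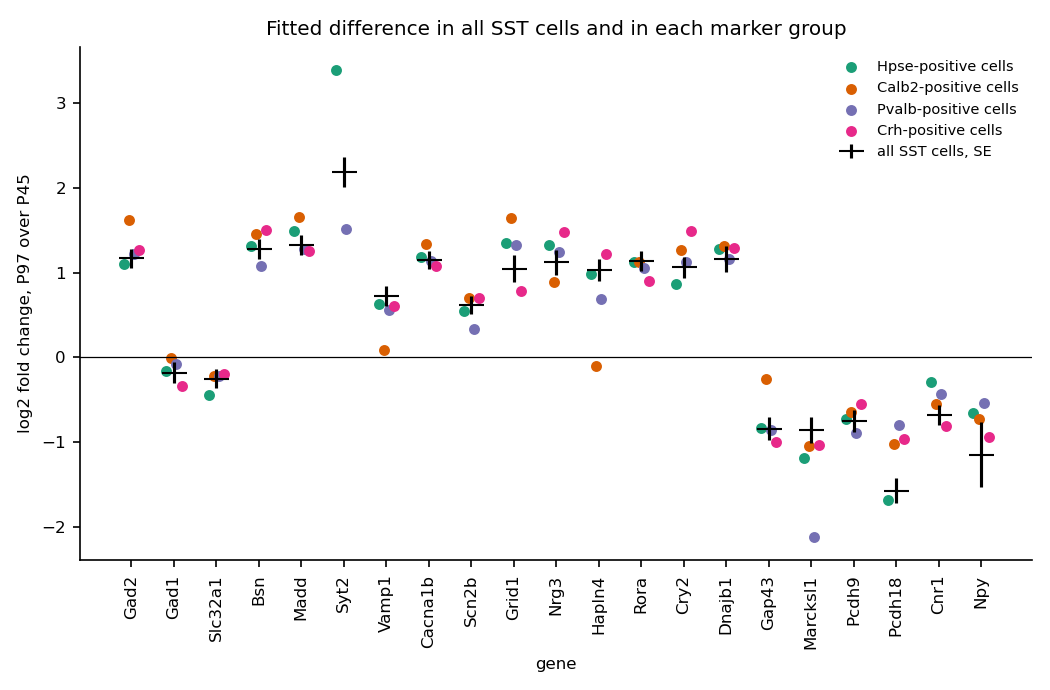
Fitted log2 fold change of P97 over P45 for 21 named genes in all SST cells (black bar with SE) and in each of the 4 marker groups (points, shown where the gene was tested). Gad2, Bsn, Madd and Cacna1b lie at 1.07 or more in every group while Gad1 and Slc32a1 lie between -0.44 and -0.01, and Gap43, Marcksl1, Pcdh9, Pcdh18, Cnr1 and Npy lie below 0 in all 4 groups.

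Genes linked to axon growth and neuronal immaturity lay mostly below P45 at P97. Of 36 measured, 2 were called lower and none higher, and 25 lay below both P45 libraries against 5 above, with a median log2 fold change of -0.28. Of all genes tested, 0.364% were called lower, and 36.1% lay below both P45 libraries and 37.5% above. Gap43, a protein of growth cones (chromosome 16, 42248442 to 42340651, minus strand), was at 167 CPM at P97 against 320 and 278 (log2 fold change -0.84 ± 0.13, adjusted p = 0.017). It was called lower in Hpse-, Pvalb- and Crh-positive cells. In Calb2-positive cells, where it was most abundant, it lay at 440 CPM against 514 and 535 and did not pass the test. Marcksl1, an actin-linked membrane protein of growing neurites, was at 95.3 CPM against 190 and 155 (-0.86 ± 0.15, adjusted p = 0.029), with its widest gap in Pvalb-positive cells, at 19.4 CPM against 85.3 and 83.1. Other genes with marked falls were the protocadherin gene Pcdh18 (39.3 against 109 and 124 CPM, -1.57 ± 0.15, adjusted p = 0.0015), Ctxn1 (56.5 against 117 and 140), the transcriptional coregulator Cited2 (75.7 against 169 and 153), the lectin gene Lgals1 (218 against 436 and 372), Nell1 (37 against 76.9 and 63.3), Fam84a (46.4 against 95.2 and 80.4) and the small GTPase Rala (50.5 against 85.3 and 85.7).

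Gm3550 and Gm8797, predicted genes without a name of their own, were also lower. Gm3550 was at 3.27 CPM at P97 against 96.5 and 144 (log2 fold change -5.19 ± 0.36, adjusted p = 0.0005), and it was absent from the Slc17a7-positive barcodes at P97 (0 UMIs) where P45 had 87.8 and 134 CPM. Gm8797 was at 131 CPM against 338 and 302. Both are reported as uncertain, as is Gm10076 (119 CPM at P97 against 22.3 and 29.2). Genes with near-identical copies can lose or gain reads by how copies were counted, and whether this applies to these genes was not tested.

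Neuropeptide genes lay mostly below P45 at P97, with 5 of 25 called lower and none higher, 16 below both P45 libraries, 2 above, and a median log2 fold change of -0.49 (0.364% of all genes were called lower and 36.1% lay below both). Within the marker groups fewer members could be tested, 14 in Hpse-positive, 15 in Calb2-positive, 15 in Pvalb-positive and 17 in Crh-positive cells. Their medians were -0.37, -0.18, -0.32 and 0.15 in that order. These are over other sets of genes than the median in all cells, and the part of the members left out was not tested. Tac1, which encodes substance P and neurokinin A, was at 5.11 CPM at P97 against 31.5 and 33.1 (-2.65 ± 0.25, adjusted p = 0.0015). The gap was widest in Pvalb-positive cells, at 7.1 CPM against 95.3 and 156, although Tac1 was found in few cells of any library, 9 of 553 at P97, 27 of 667 and 18 of 645 at P45. Neurotensin (Nts) had no UMI in 553 P97 cells, against 52 UMIs in 25 cells and 24 UMIs in 8 cells at P45. Against a floor of 3 counts in the P97 library, Nts was at least 15.3-fold lower than the P45 mean. Th, tyrosine hydroxylase, likewise had no UMI at P97 against 42 and 36, at least 15.5-fold lower, and neither gene had a UMI in the P97 GFP+ library. Cck (13.7 against 34.5 and 43.8 CPM), Pnoc, the nociceptin precursor (14.9 against 47 and 36.4), and the neurexophilin gene Nxph2 (2.46 against 15.7 and 13) were the other members called. Cck lost the call without the cells that held markers of other cell types, where its log2 fold change was -0.30.

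Npy, the neuropeptide Y gene, was at 3127 CPM at P97 against 9597 and 4231, and it lay below both P45 libraries in all 4 marker groups while it did not pass the test in all cells (log2 fold change -1.14 ± 0.39, adjusted p = 0.24). Within groups it was called lower in Hpse-, Pvalb- and Crh-positive cells. The spread between the P45 libraries was itself more than 2-fold. In cells positive for Calb2 and no other marker P97 lay between them, at 7267 CPM against 14215 and 4265. Among the marker groups it ran from 874 CPM in Hpse-positive to 6864 in Calb2-positive cells at P97. Sst, which chose the cells, lay below both P45 libraries as well.

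Both calcium-binding marker genes differed in the sums and in the share of cells that carried them. Pvalb was at 295 CPM at P97 against 138 and 159 (log2 fold change 0.99 ± 0.12, adjusted p = 0.0058), and Calb2 at 28.4 against 91.7 and 67.7 (-1.48 ± 0.21, adjusted p = 0.012). With each cell thinned to 2000 UMIs, Pvalb-positive cells were 4.34% of SST cells at P97 (exact 95% interval 2.8% to 6.39%) against 2.25% and 1.86% at P45. Calb2-positive cells were 0.723% (0.197% to 1.84%) against 3.6% and 2.33%. At 3 or more Pvalb UMIs, the P97 interval overlapped those of both P45 libraries (1.26% to 3.68% and 0.965% to 3.23%). This limit left 24, 15 and 12 positive cells. The overlap remained with a minimum of 4000 UMIs per cell and without cells holding other cell types' markers. For Calb2 the P97 interval overlapped that of replicate 2 (1.31% to 3.81%) and not that of replicate 1 (2.32% to 5.31%). With 1 or more Pvalb UMIs in thinned cells, P97 (20% to 27.3%) lay above P45 (11% to 16.3% and 12.7% to 18.4%). The Pvalb shares were then 23.5% against 13.5% and 15.3%. Unthinned, the shares were 20.4% against 8.85% and 9.61% for Pvalb and 5.61% against 12.3% and 8.53% for Calb2. The unthinned Pvalb interval at P97 (17.1% to 24%) also lay above those at P45 (6.8% to 11.3% and 7.45% to 12.2%). Within cells already positive for the gene, which is no test, Pvalb was at 816 CPM against 786 and 867. A lower share of a type and less RNA per cell cannot be told apart in a summed library. After thinning, the intervals of the Hpse- and Crh-positive shares also overlapped between ages. The shares were 4.34% at P97 against 3.3% and 4.96% for Hpse, and 4.16% against 4.5% and 6.2% for Crh. In the Slc17a7-positive barcodes, thinned in the same way, none of the 16 P97 barcodes was positive for any of the 4 markers, which leaves an exact upper bound of 20.6%. At P45 1 of 71 barcodes of replicate 1 was positive for Hpse and 1 for Crh (1.41% each), and none of the 24 of replicate 2 for any marker. Counting 1 UMI, 1 of the 16 P97 barcodes was positive for Pvalb (6.25%).

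**Figure D5:**
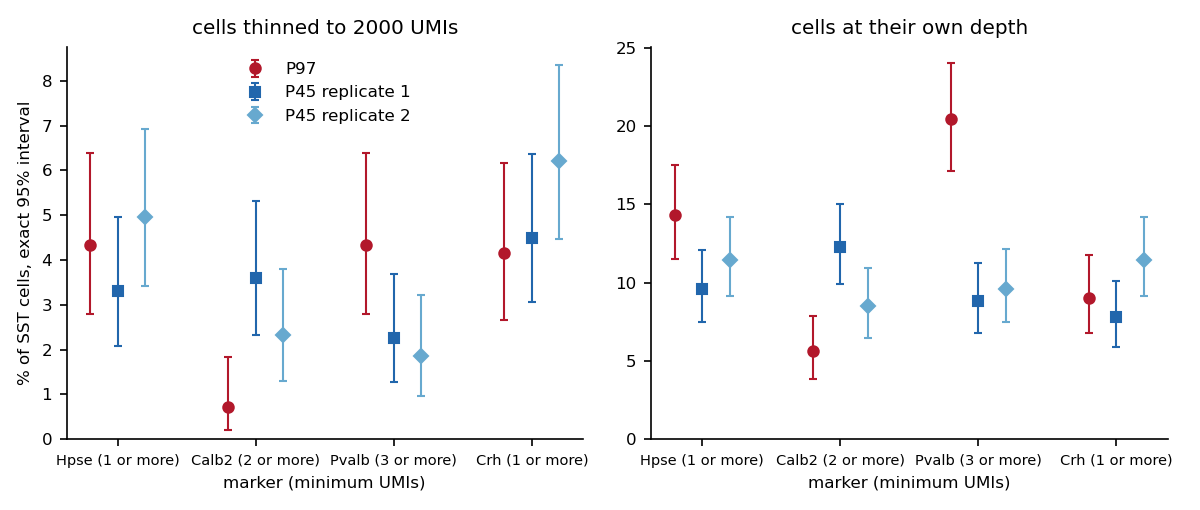
Share of SST cells positive for each marker in each tdTomato+ library, with exact 95% intervals, after thinning each cell to 2000 UMIs (left) and at each cell's own depth (right). P97 lies above both P45 libraries for Pvalb and below both for Calb2 in either panel. The intervals overlap between P97 and at least 1 P45 library for both when thinned, and for Calb2 at the cells' own depth.

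Among genes of the perineuronal net, the transcription factors and the calcium sensors, single members were called. Hapln4, a link protein of perineuronal nets, was at 149 CPM at P97 against 67.3 and 77.9 (log2 fold change 1.03 ± 0.13, adjusted p = 0.0063), and Etv1, a transcription factor, at 116 against 41.9 and 47.3 (1.37 ± 0.14, adjusted p = 0.0018). Hapln4 was called in Hpse-, Pvalb- and Crh-positive cells but not in Calb2-positive cells, where it was at 43 CPM against 38.9 and 54.4. The metalloproteinase inhibitor gene Timp3 was lower, at 61 CPM against 109 and 101. This left 1 of 16 perineuronal net genes called in each direction (1.35% of all genes were called higher and 0.364% lower). The calcium sensor gene Ncald was higher (305 against 176 and 198 CPM, 0.71 ± 0.12).

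Of 73 adhesion and guidance genes 1 was called higher and 1 lower (1.35% and 0.364% of all genes). In this list 41 lay below both P45 libraries and 13 above (36.1% and 37.5% of all genes), with a median log2 fold change of -0.19. Nrg3, a neuregulin ligand of ErbB4, was at 94.7 CPM at P97 against 40.9 and 46.1 (log2 fold change 1.12 ± 0.14, adjusted p = 0.0066), and Pcdh9 at 147 against 264 and 230 (-0.75 ± 0.13, adjusted p = 0.029). Of 34 neuromodulator receptor genes, Cnr1, the CB1 cannabinoid receptor, was lower, at 153 CPM against 246 and 244 (-0.68 ± 0.12, adjusted p = 0.024). The neuromodulator receptor list had 20 members below both P45 libraries and 5 above, with a median of -0.30. In the Slc17a7-positive barcodes Pcdh9 (332 CPM at P97 against 170 and 290) and Cnr1 (141 against 105 and 91.3) lay above both P45 libraries. So did Gap43 (499 against 328 and 451).

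Genes of stress, rhythm and activity showed isolated differences. Of all genes tested, 1.35% were called higher and 0.364% lower. Of the 38 immediate early genes, 19 lay below both P45 libraries and 3 above (36.1% and 37.5% of all genes). In the clock list, 2 of 21 were higher: Rora, a nuclear receptor (161 against 70.3 and 76.5 CPM, log2 fold change 1.14 ± 0.12, adjusted p = 0.0025), and Cry2, a repressor of the clock (146 against 73.6 and 66.7, 1.06 ± 0.12, adjusted p = 0.0042). Of 37 heat shock and unfolded protein genes, the chaperone Dnajb1 (150 against 75.9 and 58.6 CPM) and the factor Hsf2 (41.1 against 18.8 and 13) were higher. Ubb, a ubiquitin gene named after its values were seen, was lower, at 409 CPM against 660 and 634. Immediate early genes, which neuronal activity and tissue dissociation both induce, had a median of -0.43, with 1 of 38 called: Nr4a2 lay at 1.64 CPM against 17.3 and 16.2 (-3.33 ± 0.38, adjusted p = 0.004). None of 13 glucocorticoid target genes was called by edgeR's test (1 at an unadjusted p under 0.05) or by DESeq2, and of 15 interferon response genes Ifit3 was lower (10.4 against 22.3 and 27.1 CPM).

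The reporter itself differed. The tdTomato transcript was at 930 CPM at P97 against 1476 and 1515 (log2 fold change -0.68 ± 0.12, adjusted p = 0.029) and was lower in each marker group, while GFP was at 345 CPM against 346 and 332. The P97 GFP+ library held 875 CPM of tdTomato. Malat1, an abundant noncoding RNA of the nucleus, was at 22391 CPM at P97 against 15045 and 11827. It did not pass the test in all cells (adjusted p = 0.076) but was called higher in each of the 4 marker groups.

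Over all SST cells, genes of oligodendrocytes did not move together, with 1 of 10 markers tested called lower, none higher and a median log2 fold change of 0.10. Mobp, of the myelin sheath, was called lower (53.8 against 94 and 93.1 CPM), and Ptgds, which oligodendrocytes and meningeal cells express, was called higher (91.9 against 17.8 and 22.2 CPM) and is named after its values were seen. Which cells held this RNA differed between the libraries. In cells with none of the 4 markers Mobp was at 116 CPM at P97 against 159 and 33.3. In Hpse-positive cells it was at 3.32 against 1.83 and 184. P97 lay between the P45 libraries in both, and the fitted fall in Hpse-positive cells rested on P45 replicate 2. Within 3 of the marker groups most of the list was called lower: 7 of 9 tested were called lower in Hpse-positive, 8 of 9 in Pvalb-positive and 5 of 7 in Crh-positive cells, with medians of -4.77, -4.67 and -5.08, and none of 1 in Calb2-positive cells. These genes are among the lower calls of those groups, and the part of oligodendrocyte RNA in the others was not tested. Ptgds was at 197 CPM at P97 in cells with none of the 4 markers, against 29 and 13.8. In the Slc17a7-positive barcodes Ptgds had 258 UMIs at P97 and none in either P45 library. Without cells holding 2 or more UMIs of other cell types' markers, 171 genes were called, all of them among the 207, and Ptgds was not.

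The GFP+/tdTomato+ library of the same P97 mice was enriched in Hpse-positive cells, 117 of 186. In these cells, 129 of the 148 genes called higher at P97 in the tdTomato+ sort lay above both P45 libraries and 4 below. Of the 36 called lower, 33 lay below both and 2 above. The share of all genes beyond both P45 libraries was not counted for the GFP+ library. In the Hpse-positive cells of the tdTomato+ P97 library, 34% of 8418 genes lay above both and 33.2% below. Of the genes called within Hpse-positive cells, 90 of 94 higher and 53 of 62 lower lay on the same side of both P45 libraries. The P97 libraries share mice and dissociation, so these values come from another channel and not from another group of animals. The P45 libraries used to call the genes are also the comparison here, so lying beyond them was favoured in advance. The counts are a description. In the Hpse-positive cells of the GFP+ library Gad2 was at 2551 CPM, Bsn at 527 and Cacna1b at 223. In those of the tdTomato+ library they were at 2442, 593 and 236. Gap43 was at 92.1 CPM and Marcksl1 at 16 in the GFP+ library, below 137 and 35.4 in the tdTomato+ library.

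Few genes differed between ages unequally among the marker groups. The interaction of age and marker group was fitted by edgeR over 12 sums of cells positive for exactly 1 marker, to which the CPM values in this paragraph refer, with library as a block, and called 9 of 8564 genes (0.105%). At an unadjusted p under 0.05 it passed 504 genes. DESeq2 called none (14 at an unadjusted p under 0.05), and neither did edgeR after thinning (169 of 3627). Epha4, an ephrin receptor, was higher at P97 in Crh-positive cells, at 309 CPM against 113 and 115, and lay at 35 against 107 and 44 in Hpse-positive cells (adjusted p = 0.0011). Pcdh10, another protocadherin, showed the same contrast, with 707 CPM against 377 and 452 in Crh-positive cells and 172 against 233 and 265 in Hpse-positive cells (adjusted p = 0.0043). Gpx3, a secreted glutathione peroxidase, was lower in Calb2-positive cells, at 20 CPM against 59 and 70, and higher in Hpse-positive cells, at 29 against 13 and 9 (adjusted p = 0.012). These Gpx3 values rested on few counts, 5 UMIs against 29 and 24 in the Calb2 group and 13 against 4 and 4 in the Hpse group.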

How the data were processed

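Single-cell 3′ libraries (10x Chromium) of sorted cortical cells were mapped by the authors to GRCm38 and counted with Cell Ranger 2.0.0, per the labels and the submitters' processing notes. The deposited matrices hold raw UMI counts per gene and barcode, with no normalization. SST cells were selected as stated above, and their counts were summed per library and marker group and scaled to CPM. Sums were tested with edgeR 4.0.16 (TMM, filterByExpr, quasi-likelihood F test, Benjamini-Hochberg adjustment) in R 4.3.3, with DESeq2 1.42.0 as an alternative. Scrublet (scanpy 1.11.5) marked 0 to 2 cells per tdTomato+ library as doublets, too few for the caller to have worked, and none was removed. Exact intervals came from scipy 1.17.1 and cover counting error only. Transcript lengths and positions are from GENCODE M21 and promoters from RefSeq. The libraries come from separate batches of mice at P45 and from 1 pool at P97, so the only spread between libraries of an age is that at P45. edgeR shares this spread over genes, so the p-value of a gene does not rest on its own P45 spread alone.

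Genes were named by rule: the 12 higher and 12 lower with the largest called changes recurring in 4 marker groups at 50 CPM or more, up to 4 called members of each gene list (where none was called, the 2 most abundant could be named), the marker genes, and genes with an age by marker group effect. Others are Madd, Akap5, Ubb, Rps29, Rpl38, Snhg9, Th, Gad1, Slc32a1 and Ptgds, chosen after their values were seen. A gene that the rule names is not reported here. The comparison, the marker groups and the lists were chosen with earlier results of these data known. Alternatives varied the cell filters, depth, marker overlap, sex-linked genes, normalization, gene filter and tool.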

Additional observations from a re-analysis of the deposited data

Results flagged for a closer look

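For 9 genes the difference between ages varied among the marker groups by the interaction test of edgeR (adjusted p over 8564 genes), fitted on cells positive for exactly 1 marker, and every CPM value below is from such cells. All 9 lost the call under some alternatives, and the explanations were not tested. Ptn (adjusted p = 2.58e-05) and Col25a1 (0.00029) encode secreted or membrane-bound extracellular proteins. In Calb2-positive cells Ptn was at 562 CPM at P97 against 565 and 67 CPM at P45, so the P45 libraries differed from each other by more than the ages did. Col25a1 was at 434 CPM in those cells against 314 and 146, and at 102 against 196 and 147 in Pvalb-positive cells. Epha4 (0.0011), Pcdh10 (0.0043) and Gpx3 (0.012) are described above. Malat1 (0.016) was at 32231 CPM against 12884 and 15904 in Hpse-positive cells and at 13611 against 10871 and 8615 in Pvalb-positive cells, above both P45 libraries in all 4 groups. Rapgef1 (0.021) was at 68 CPM against 0 and 22.6 in Crh-positive cells and at 4.01 against 30.6 and 37.9 in Calb2-positive cells. These values rested on few counts, 20 UMIs against 0 and 11 in the Crh group and 1 against 15 and 13 in the Calb2 group. Npy (0.042) was at 7267 CPM against 14215 and 4265 in Calb2-positive cells, where P97 lay between the P45 libraries. Ap2s1 (0.046), a subunit of the clathrin adaptor AP-2, was at 347 CPM against 172 and 215 in Crh-positive cells and at 153 against 275 and 283 in Calb2-positive cells.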

How the results depend on the processing

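The direction of the called named genes held widely: 64 of 65 kept it under every alternative run, and 40 were called under every tested one. The exception was Mobp, at 0.14 (log2) with cells thinned to 2000 UMIs and 0.36 in cells with Xist and no Y-linked UMI. The alternative that kept only Xist cells and the one that kept cells with 2 to 8% mt- UMIs were chosen after seeing the data. The count over all cells, 207, became 521 in the Xist cells, 726 without a filter on low counts and 86 with DESeq2 (85 of them shared). It was 304 after thinning, 301 with library totals alone and 171 without cells holding other cell types' markers. Leaving out only the 2 cells marked as doublets, both in P45 replicate 1, gave 248. Genes higher at P97 were 78.7% of the calls, 65.8% after thinning, 56.8% in the Xist cells and 59.1% without the filter. Thinning gave 35 calls in Hpse-, 19 in Calb2-, 45 in Pvalb- and 19 in Crh-positive cells, and DESeq2 gave 18, 12, 26 and 10. In cells positive for exactly 1 marker there were 94, 109, 29 and 80 in the Hpse, Calb2, Pvalb and Crh groups. Calb2-positive cells gave 108 calls at a minimum of 4000 UMIs, 102 with 2 to 8% mt- UMIs, 98 without the filter and 0 in the Xist cells (edgeR, 178 of 4017 genes at an unadjusted p under 0.05). Pvalb-positive cells gave 68 at 4000 UMIs and 145 in the Xist cells, and Crh-positive cells 25 in the latter. Recurring genes, 1074, became 343 when thinned, 603 in the Xist cells and 686 in cells with exactly 1 marker, and 2301 to 2346 without either P45 library. Each setting counted only genes with 20 or more of its own UMIs in every group, so fewer UMIs left fewer genes to count. The shares of countable genes were not computed. Without either P45 library, P97 had to lie outside 1 library only. The interaction count, 9, became 20 with 10 or more Sst UMIs, 15 in the Xist cells, 5 with overlapping groups, 4 without cells holding other cell types' markers, and 0 when thinned or with DESeq2. Epha4 then had an adjusted p of 0.98 when thinned and Npy 0.9998 with overlapping groups. The causes were not tested.

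The ratio of P97 to P45 shares of cells, thinned, was 1.05 for Hpse (1.36 unthinned), 0.244 for Calb2 (0.538 unthinned, 0.601 counting 1 UMI), 2.11 for Pvalb (1.63 counting 1 UMI, 1.82 at a minimum of 4000 UMIs) and 0.777 for Crh. Leaving out either P45 library gave 0.875 to 1.32 for Hpse, 0.201 to 0.311 for Calb2, 1.93 to 2.33 for Pvalb and 0.671 to 0.925 for Crh, and 168 to 172 in place of 162 called genes beyond P45 in the GFP+ library. Counts of calls were not made with 1 library against 1, since no residual degrees of freedom remain. No paired analysis was possible because the P97 label carries no replicate number shared with P45. With 1 library at P97, the spread at that age is unknown.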
